A study of Mus musculus with 2 samples.

Results

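The PARP family, enzymes that attach ADP-ribose from NAD+ to proteins and nucleic acids, was followed together with Dtx3l, the ubiquitin ligase that partners Parp9. The members were chosen by gene symbol, as Parp1, Parp2, Parp3, Parp8, Parp9, Parp10, Parp11, Parp12, Parp14 and Dtx3l, and all 10 were found among the 22088 genes with a single symbol on the array. Each had 1 probe set, so no choice between probe sets was needed, and none carried the array annotation's cross-hybridisation flag. The study set polysome-associated RNA of wild-type bone marrow-derived macrophages against that of Oasl1-/- macrophages, with 1 array from each genotype and therefore no replicate. Both genotypes were on the C57BL/6J strain. Marrow cells of both were grown into macrophages over 7 days with L929 cell supernatant, and both were exposed over 12 h to 10 µg/ml of poly(I:C), which mimics the double-stranded RNA of viruses. RNA came from fractions 9 to 11 of 16 collected from a sucrose gradient of 10% to 50%. The comparison asks which mRNAs differ in polysomes when OASL1, an interferon-induced protein known to restrain translation of Irf7, is missing. The labels give neither the deleted part of Oasl1 nor the number or age of the mice, no untreated macrophages were part of the comparison, and every difference below is a value of 2 arrays with no test.

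As background, PARP enzymes fall into those that build chains of ADP-ribose, such as Parp1, Parp2 and the tankyrases, and those that add single units, such as Parp3, Parp8, Parp10, Parp11, Parp12 and Parp14. Parp1, Parp2 and Parp3 are recruited to DNA breaks. Parp9, Parp10, Parp11, Parp12, Parp14 and Dtx3l are known as interferon-stimulated genes, which macrophages turn on after sensing double-stranded RNA.

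Promoter sequences from RefSeq (build GRCm38.p6), each covering 250 bases before and 50 after an annotated start, matched 7 of the 10 members, with 2 entries for Parp11. Parp9, Parp10 and Parp14 did not match. The 8 entries were searched on both strands for the core of the interferon-stimulated response element, GAAANNGAAA, bound by interferon regulatory factors, and for the gamma-activated site, TTCNNNGAA, known from genes induced by interferon gamma. Among all 32851 promoter entries 3.44% held the first motif, 8.30% the second and 0.454% both. Among the members, 1 entry held a match, the first of the 2 for Parp11, and it held both motifs. Its response element lies on the minus strand, reads GAAATCGAAA and begins 44 bases before the start, and the gamma-activated site begins 37 bases before the start and overlaps it by 3 bases. The first Parp11 sequence is shown because it carries these matches, in capitals as 1 run of 16 bases. It lies on the plus strand at chr6:127446590-127446889, with a GC content of 42.0%.
Parp11: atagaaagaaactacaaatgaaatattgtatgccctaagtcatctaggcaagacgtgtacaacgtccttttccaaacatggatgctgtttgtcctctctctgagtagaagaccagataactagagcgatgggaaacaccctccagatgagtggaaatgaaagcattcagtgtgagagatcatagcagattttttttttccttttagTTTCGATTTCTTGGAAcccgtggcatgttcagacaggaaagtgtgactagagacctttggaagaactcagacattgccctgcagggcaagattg
The Dtx3l sequence is shown because Dtx3l and Parp9 start head to head, and the Parp1 sequence because Parp1 was the member with the lowest difference. They lie at chr16:35938978-35939277 on the minus strand and at chr1:180568641-180568940 on the plus strand, with GC contents of 54.3% and 62.0%, and neither holds a match to these letters in this window.
Dtx3l: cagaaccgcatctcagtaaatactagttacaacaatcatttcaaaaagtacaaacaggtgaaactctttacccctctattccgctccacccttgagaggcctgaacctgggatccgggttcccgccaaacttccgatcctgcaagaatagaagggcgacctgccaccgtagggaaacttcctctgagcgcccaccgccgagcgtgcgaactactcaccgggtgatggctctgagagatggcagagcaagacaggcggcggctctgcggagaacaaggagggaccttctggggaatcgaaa
Parp1: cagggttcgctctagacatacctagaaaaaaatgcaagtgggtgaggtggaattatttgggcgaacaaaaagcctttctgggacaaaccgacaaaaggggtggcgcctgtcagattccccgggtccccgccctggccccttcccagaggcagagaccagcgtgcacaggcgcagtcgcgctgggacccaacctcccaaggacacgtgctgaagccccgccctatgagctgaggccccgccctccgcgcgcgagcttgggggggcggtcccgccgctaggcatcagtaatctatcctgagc

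The members' polysomal signals were higher in the Oasl1-/- array for 8 of 10 genes and lower for Parp1 and Parp2. All 10 passed the floor, a log2 signal of 7 on the brighter array, and all were also above it on the dimmer array, the lowest value being 8.01 for Parp2 in Oasl1-/-. The log2 differences, Oasl1-/- minus wild-type here and throughout, ran from -0.63 for Parp1 to 0.86 for Parp11, with a median of 0.49 (1.40-fold). The 7835 genes past the floor had a median of -0.09 and a SD of 0.39, which holds real and technical differences alike. No member reached 2-fold, a size that 2.22% of all genes reached, 1.57% in the higher and 0.651% in the lower direction. At 1.5-fold 3 members were higher, Parp11, Parp10 and Parp8, against 5.27% of all genes, and 1 was lower, Parp1, against 6.28%. By any amount 39.1% of all genes were higher and 60.6% lower. Signals of different probe sets are not compared with each other, since probes differ in brightness.

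**Figure D1:**
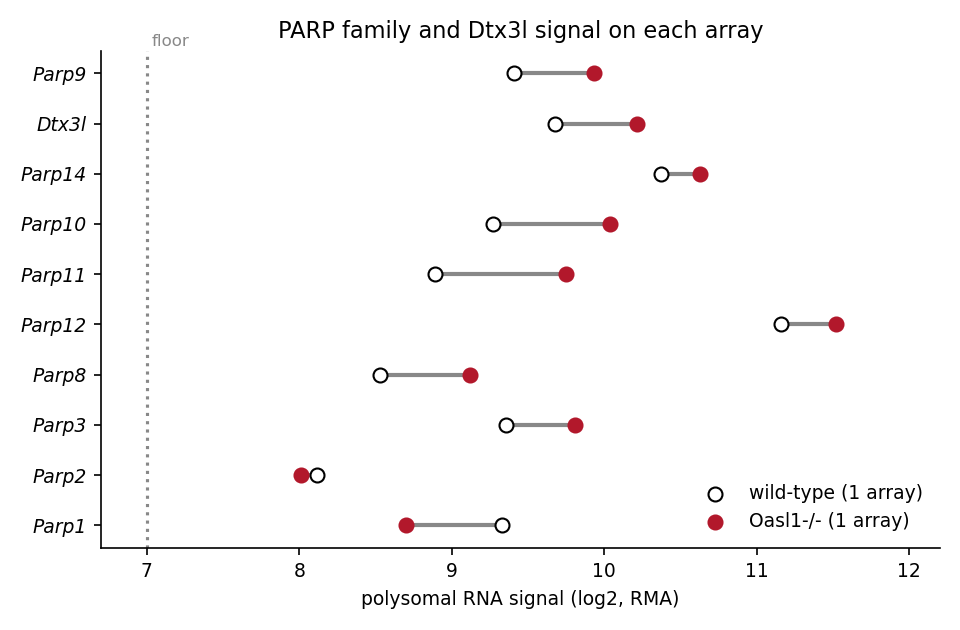
Log2 RMA signal of each member (horizontal axis) on the wild-type array (open circles) and the Oasl1-/- array (filled circles), 1 array each, with the floor of 7 as a dotted line. The filled circle lies to the right in 8 genes and to the left in Parp1 and Parp2, and all points lie at or above 8.01.

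Parp9 and Dtx3l act as a pair, Parp9 binding ADP-ribose through its macrodomains and Dtx3l attaching ubiquitin. The log2 signal of Parp9 was 9.41 on the wild-type array and 9.93 on the other, a difference of 0.53 (1.44-fold). Here and below, the wild-type signal is given first. Dtx3l had 9.67 and 10.21, a difference of 0.54 (1.45-fold). The differences of the partners were 0.01 apart. The median gap between probe sets of a single gene was 0.08, over the 603 genes with several past the floor. That gap does not measure how near different genes lie, so it cannot show that the partners moved as a pair. Mx1, an effector listed below, was as near to Parp9, at 0.52. Whether the partners lay closer than other pairs of genes was not tested. Of all genes 6.47% had a higher difference than Parp9 and 6.18% a higher one than Dtx3l.

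Parp14, a large macrodomain enzyme described in mice as a cofactor of Stat6, lies beside this pair. Its signals were 10.37 and 10.63, a difference of 0.26 (1.20-fold), the smallest among the 6 interferon-stimulated members and 0.27 below that of Parp9. On build NCBIM37 the Parp14 probe set spans chromosome 16, 35832960 to 35871586, on the minus strand. That of Dtx3l spans 35926597 to 35939054 on the minus strand, and that of Parp9 spans 35938556 to 35972691 on the plus strand. The spans of Dtx3l and Parp9 thus overlap by 499 bases at their 5′ ends, on opposite strands, and 139732 bases hold all 3 genes.

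The genes past the floor around this cluster did not share its direction. Kpna1, which encodes an importin that carries proteins into the nucleus, begins 10757 bases beyond the end of Parp9 and had signals of 9.91 and 9.60, a difference of -0.31. Gm10237, a predicted gene between Parp14 and Dtx3l, had 10.09 and 9.66, a difference of -0.43. Hspbap1, on the far side of Parp14, was below the floor at 6.71 and 6.87. Around all members, the next probe sets with a symbol, by start, on each side and between them numbered 17, of which 9 were past the floor. Their differences ran from -0.58 to 0.32 with a median of -0.31, 2 were higher and 7 lower, next to 39.1% and 60.6% of all genes, and none reached 1.5-fold in either direction. Both rows named Hmgb1, at -0.58 and -0.52, are among them, and the one on chromosome 6 overlaps the Parp11 span. Without these rows 2 were higher and 5 lower, with a median of -0.29.

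**Figure D2:**
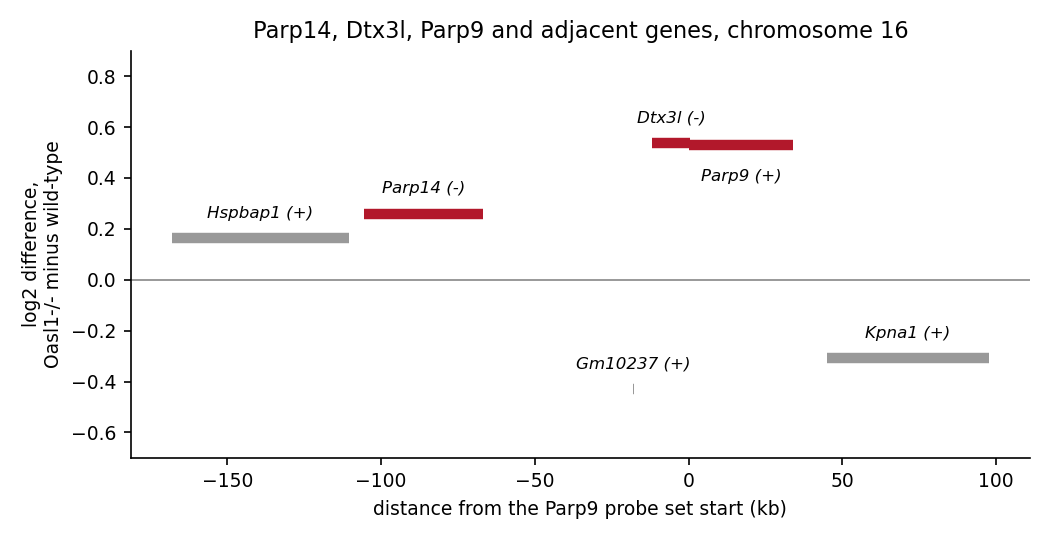
Log2 difference (vertical axis, Oasl1-/- minus wild-type) of Parp14, Dtx3l and Parp9 (red) and adjacent genes (grey), drawn as the span of each probe set against the distance from the start of the Parp9 probe set in kilobases, with the strand in brackets. Dtx3l at 0.54 and Parp9 at 0.53 meet at the start, Parp14 lies at 0.26, and Kpna1 and Gm10237 lie at -0.31 and -0.43.

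The remaining interferon-stimulated members all encode enzymes that add single ADP-ribose units. Parp11, reported in human cells to limit signalling from the type I interferon receptor, had signals of 8.89 and 9.75, a difference of 0.86 (1.82-fold) that ranked 175th highest of the 7835 genes. The Parp11 probe set of 27 probes spans chromosome 6, 127403741 to 127447469, on the plus strand, and the difference was 0.86. This was the largest difference of the members. Of the 2 Parp11 promoter entries the first held a response element match and the second held none. A link between the match and the difference was not tested. Parp10, first described in human cells as a partner of MYC, had signals of 9.27 and 10.04, a difference of 0.77 (1.71-fold). Its 33 probes span chromosome 15, 76063422 to 76073864, on the minus strand, and 2.91% of all genes had a higher difference. Parp12, whose zinc fingers bind RNA and which can restrain replication of RNA viruses, had signals of 11.16 and 11.52, a difference of 0.36 (1.28-fold). Its 28 probes span chromosome 6, 39036412 to 39068348, on the minus strand.

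All 6 interferon-stimulated members were higher, by 0.26 to 0.86, next to 39.1% of all genes. Their median was 0.53 (1.45-fold) against -0.09 over all genes past the floor. This group was chosen with earlier results of these data known. Among genes within 0.5 of a member's mean log2 signal, the SD of the differences, estimated from their median absolute deviation, was 0.31 to 0.34. The share of these genes with a higher difference was 2.62% for Parp11, 3.52% for Parp10, 8.46% for Parp9, 8.44% for Dtx3l, 17.9% for Parp12 and 25.1% for Parp14. The differences of Parp12 and Parp14 thus lay inside the bulk of genes of like signal, and those of Parp10 and Parp11 near its upper edge.

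The members recruited to DNA breaks did not share a direction. Parp1, the main source of ADP-ribose chains after DNA damage, had signals of 9.33 and 8.70. The log2 difference was -0.63, so that the Oasl1-/- signal was 64.7% of the wild-type one. Its 48 probes span chromosome 1, 182499104 to 182531385, on the plus strand, and 5.03% of all genes had a lower difference. Parp2, its closest relative in break repair, had signals of 8.12 and 8.01, a difference of -0.10 that was close to the median of all genes and turned to 0.023 after removal of a loess trend and to 0.0068 after quantile normalization. Its probe set spans chromosome 14, 51427621 to 51440977, on the plus strand. Parp3, which adds single units at double-strand breaks, had signals of 9.36 and 9.81, a difference of 0.45 (1.37-fold), and spans chromosome 9, 106372684 to 106378982, on the minus strand. Parp1 was at least 1.5-fold lower as deposited, but not after centring on the median gene (-0.54) or removal of a loess trend (-0.57).

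Parp8, an enzyme of single-unit transfer with few described functions, had signals of 8.53 and 9.12, a difference of 0.59 (1.51-fold). Of all genes 5.12% had a higher difference. Its 30 probes span chromosome 13, 117643720 to 117814344, on the minus strand. The value lay just past 1.5-fold and fell short of it with a pseudocount of 32, at 0.55.

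**Figure D3:**
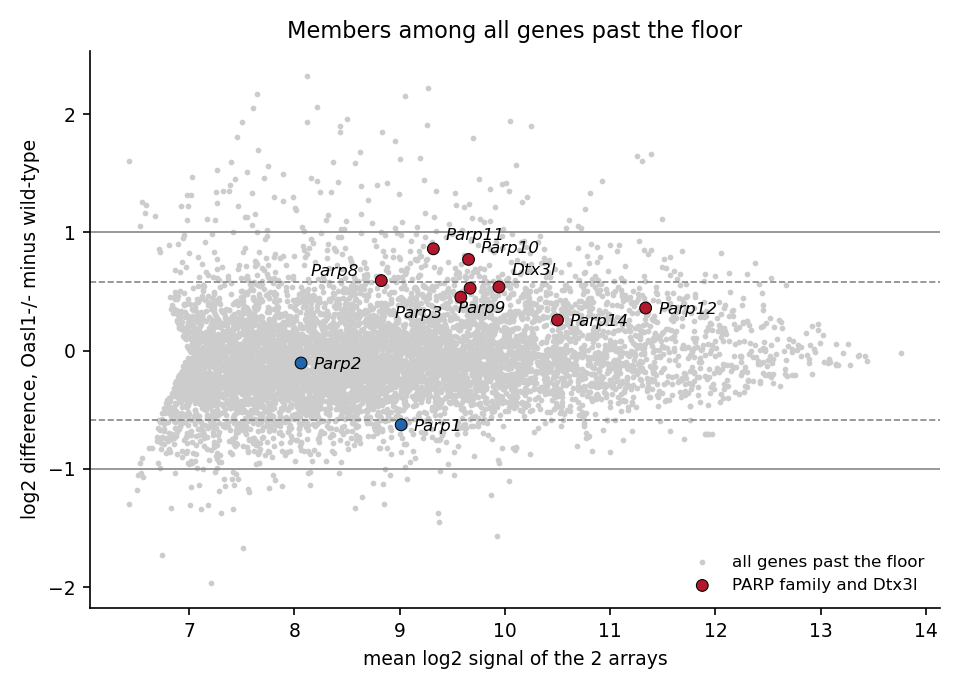
Log2 difference (vertical axis, Oasl1-/- minus wild-type) against the mean log2 signal of both arrays for the 7835 genes past the floor (grey) and the members (red where higher, blue where lower in Oasl1-/-), with dashed lines at 1.5-fold and solid lines at 2-fold. Parp11 at 0.86 and Parp10 at 0.77 lie highest of the members, Parp1 at -0.63 lowest, and none crosses 2-fold.

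The rest of the PARP family covered 7 genes, of which 5 were past the floor, with a median of 0.20. None of the 5 reached 1.5-fold, a size that 5.27% of all genes reached in the higher and 6.28% in the lower direction. Tiparp, a zinc finger PARP induced by the aryl hydrocarbon receptor, had signals of 8.22 and 8.71, a difference of 0.49. Zc3hav1, the zinc finger antiviral protein that binds viral RNA, differed by 0.24 and Parp4, a component of vault particles, by 0.18. The tankyrase genes Tnks and Tnks2, whose products act at telomeres and on Wnt signalling, differed by 0.20 and -0.12. Parp16 (6.58 and 6.02) and Parp6 (5.33 and 5.31) were below the floor. Of the 16 PARP genes, 14 were past the floor and 11 of these were higher, next to 39.1% of all genes.

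A split by reaction type, made after the values were seen, is given as a description. The 8 enzymes of single-unit transfer past the floor, Parp3, Parp4, Parp8, Parp10, Parp11, Parp12, Parp14 and Tiparp, were all higher. The 8 differences ran from 0.18 to 0.86 with a median of 0.47, and by any amount 39.1% of all genes were higher. The other 2 of this type, Parp16 and Parp6, were below the floor and lower, at -0.56 and -0.02. The 4 chain builders, Parp1, Parp2, Tnks and Tnks2, differed by -0.63 to 0.20 with a median of -0.11, close to that of all genes. The groups overlapped, with Parp4 at 0.18 and Tnks at 0.20, and no difference between them was tested. The 3 PARPs with RNA-binding zinc fingers, Parp12, Tiparp and Zc3hav1, differed by 0.36, 0.49 and 0.24.

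Genes that remove ADP-ribose differed in both directions. Of 9 listed, 7 were past the floor, with a median of 0.01 next to -0.09 for all genes. Of these 4 were higher and 3 lower, next to 39.1% and 60.6% of all genes, and none reached 1.5-fold. Parg, which cuts ADP-ribose chains, had signals of 8.44 and 8.33, a difference of -0.10. Adprhl2, which takes the last ADP-ribose off serine, differed by -0.38, Macrod1, a hydrolase acting on single units that passed the floor only on the wild-type array, by -0.24, and Adprh, which acts on arginine, by 0.20. Macrod2, Nudt9 and Enpp1 were level, at 0.01, 0.03 and 0.07. The Macrod2 value rests on 6 probes, with signals of 7.26 and 7.27 that lie near the floor.

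NAD+ is the substrate from which PARP enzymes take ADP-ribose. Of 16 listed genes that make or use it, 6 were past the floor, with a median of 0.07. Of these 3 were higher and 3 lower, next to 39.1% and 60.6% of all genes. Only 1 was at least 1.5-fold higher, against 5.27% of all genes. This was Bst1, a cell-surface enzyme that consumes NAD+, with signals of 7.26 and 8.23 that put it 0.97 higher. The related gene Cd38 was below the floor on both arrays, at 5.67 and 6.54. Nampt, the rate-limiting enzyme of NAD+ salvage, had signals of 11.44 and 11.71 and differed by 0.26, and the NAD+-dependent deacylases Sirt6, Sirt2, Sirt7 and Sirt1 by 0.19, -0.05, -0.08 and -0.12. In all, 9 of the 15 measured genes of this list were below the floor.

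Among 20 partners of Parp1 and Parp3 in break repair 12 were past the floor. Their median of -0.16 lay near the median of all genes. Of these 8 were lower and 4 higher, next to 60.6% and 39.1% of all genes. At 1.5-fold 2 were lower and none higher, against 6.28% and 5.27% of all genes. Apex1, the endonuclease that cuts at lost bases, had signals of 8.89 and 8.11, a difference of -0.78 next to -0.63 for Parp1. Tdp1, which frees trapped topoisomerase, differed by -0.59, and its Oasl1-/- signal of 6.74 was below the floor. Timeless, a replication fork protein that binds Parp1, differed by 0.45. Xrcc1, the scaffold recruited by ADP-ribose chains, differed by -0.17 and Lig3, its ligase partner, by -0.25.

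Of the 4 other Deltex ubiquitin ligase genes, only Dtx4 was past the floor, with signals of 7.68 and 7.08 and a difference of -0.60, opposite to Dtx3l. Dtx1, Dtx2 and Dtx3 were below it, with signals between 5.88 and 6.85.

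The interferon-stimulated members were set beside other interferon-stimulated genes. Among transcription factors that drive such genes Irf7 differed by 1.33, Irf1 by 0.56, Stat2 by 0.48 and Irf9 by 0.01, and Stat6, the partner of Parp14, by -0.13. The effectors Ifit1, Ifit2, Ifit3, Mx1, Mx2 and Rsad2 had a median of 0.63, the lowest being Mx1 at 0.52 and the highest Ifit1 at 2.14-fold. Isg15, its conjugation genes Uba7, Ube2l6 and Herc5, and Usp18, whose product removes it from proteins, had a median of 0.48. They ran from 0.15 for Ube2l6 to 0.86 for Usp18. The 0.53 of the members lay between the medians of these last lists, and their range from 0.26 to 0.86 overlapped both. No difference between these lists was tested.

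**Figure D4:**
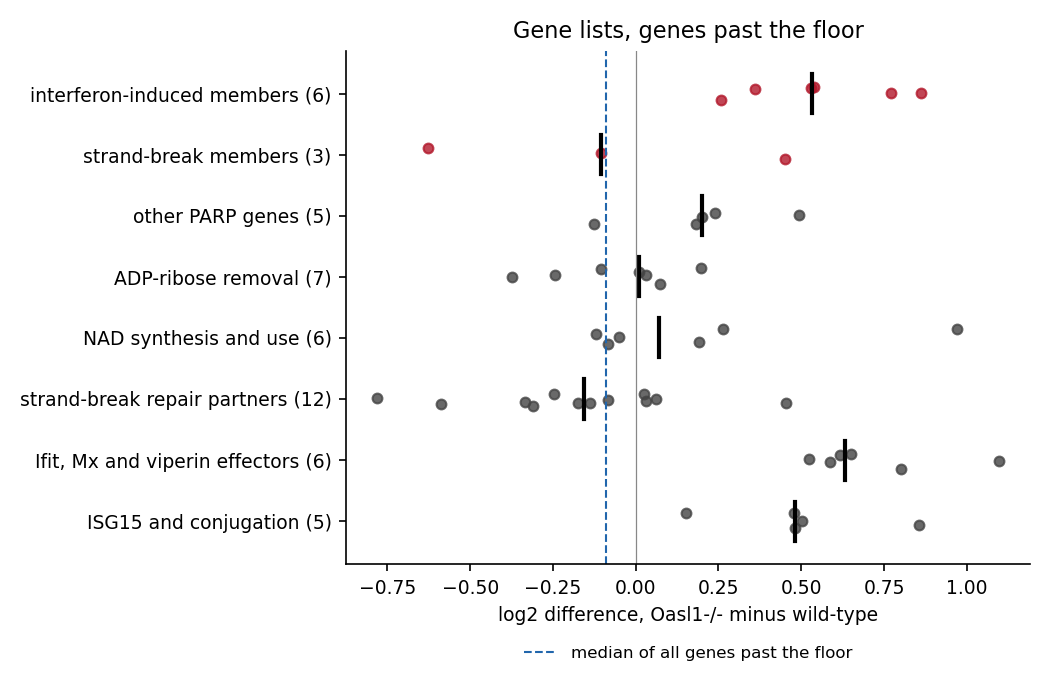
Log2 difference (horizontal axis, Oasl1-/- minus wild-type) of each gene past the floor by list, with the number of genes in brackets, the list median as a black bar and the median of all genes, -0.09, as a dashed blue line. The interferon-stimulated members (red, top line, median 0.53) lie to the right of it, like the effectors at 0.63 and the Isg15 genes at 0.48, while the ADP-ribose removal genes centre on 0.01.

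The response element motif of Parp11 was set against all genes. Of 6034 genes past the floor with a promoter entry, 257 held the motif and had a median difference of 0.09, and 5777 did not and had one of -0.10. At least 1.5-fold higher were 20.2% of the genes with the motif and 4.33% of those without. At least 1.5-fold lower were 4.28% and 6.30%. For the gamma-activated site the shares higher were 7.13% of 477 genes and 4.82% of 5557. These shares are descriptions of 2 arrays, and a match does not show that a factor binds there.

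The direction of the members was read under other scalings, because fewer genes were higher than lower on the deposited scale. Of genes at 1.5-fold 45.6% were higher on that scale, 64.9% after centring on the median gene, 67.8% after removal of a loess trend, 61.2% after quantile normalization and 51.9% with a pseudocount of 32. At 2-fold the share was 70.7% as deposited and 79.3% to 85.2% in these 4. Under all 4 the 6 interferon-stimulated members, Parp3 and Parp8 stayed higher and Parp1 stayed lower, and Parp2 alone turned. A pseudocount keeps the sign of each difference by construction, and centring raised every difference alike by 0.09. Only removal of a loess trend and quantile normalization could thus have turned a higher member. Parp11 ranged from 0.82 to 0.95, Parp10 from 0.74 to 0.86, Parp14 from 0.25 to 0.35 and Parp1 from -0.63 to -0.54. After centring 5 members were at least 1.5-fold higher, Parp9 and Dtx3l having joined, and Parp1 no longer reached 1.5-fold lower.

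**Figure D5:**
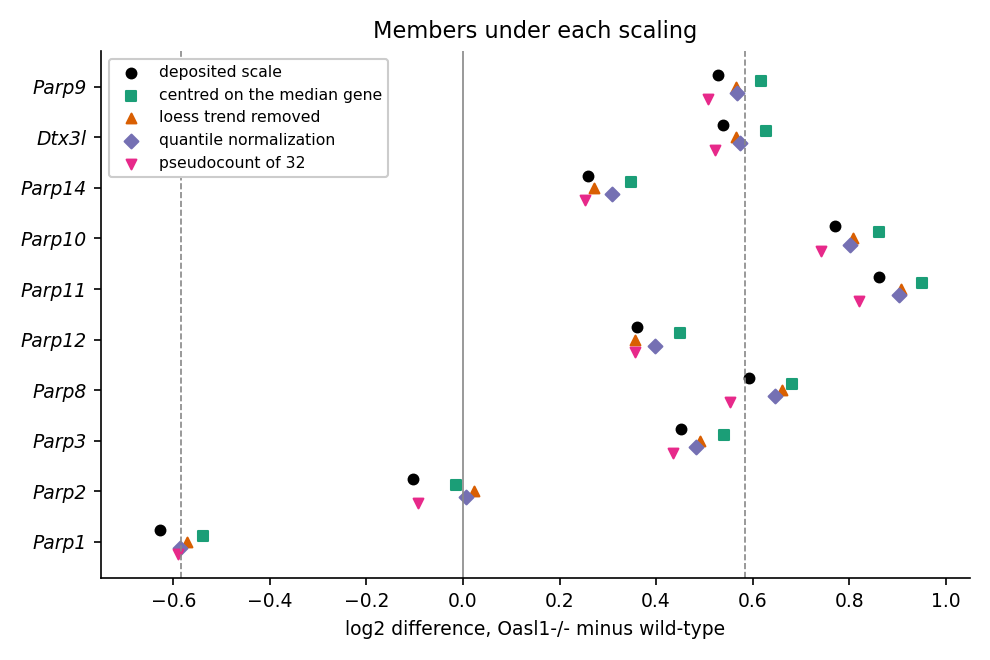
Log2 difference (horizontal axis, Oasl1-/- minus wild-type) of each member on the deposited scale and under 4 alternative scalings, marked by symbol and colour, with dashed lines at 1.5-fold. Parp11 stays between 0.82 and 0.95, Parp1 between -0.63 and -0.54, and only Parp2, between -0.10 and 0.02, has values on both sides of 0.

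Facts of the arrays bear on all of these values. Oasl1 itself had log2 signals of 10.70 and 9.14, so 33.7% of the wild-type signal was still measured. The probe set may include probes outside the deleted part. All 8 macrophage markers were past the floor on both arrays, from 8.40 for Mertk to 12.78 for Cd68. All 8 were higher in Oasl1-/-, by 0.00 to 0.59 with a median of 0.11, next to 39.1% of all genes. The largest were Mertk at 0.59, Cd14 at 0.48 and Fcgr1, itself interferon-responsive, at 0.45. None of the 27 measured markers of T and NK cells, B cells, neutrophils, fibroblasts and dendritic cells was past the floor, and their signals lay between 2.55 and 6.94. Polysomal signal reflects both the amount of an mRNA and the share of it on ribosomes, and total RNA was not analysed here. In bulk RNA, fewer cells of a type and less RNA per cell cannot be told apart. RMA equalises arrays before probes are summarised, so the differences are relative to other genes. The deposited signals still differed in distribution, since quantile normalization moved the median difference of genes past the floor from -0.09 to -0.01 and the share higher from 39.1% to 48.3%.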

How the data were processed

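Polysome-associated RNA of 1 wild-type and 1 Oasl1-/- macrophage sample was hybridised to Affymetrix Mouse Gene 1.0 ST arrays. Signals are log2 values that the authors deposited for 35556 probe sets, made with GCOS and RMA per the submitters' processing notes. The series design text names the affy package 2.9.2 for R and Expression Console 1.1. The authors also deposited a log2 ratio, which equalled Oasl1-/- minus wild-type in all rows, and an unsigned fold change, a linear ratio. The series value table held the same log2 signals. Coordinates are those of the file, on NCBIM37.

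Symbols were taken from the table, where 25465 probe sets had 1 symbol, 2 had several and 10089 had none. A gene was represented by its probe set with the highest mean signal. The floor of 7 left 7835 genes and lies near the level that 97.5% of 5222 intron control probe sets stay under, 7.13 and 7.34 on the wild-type and Oasl1-/- arrays. With 1 array per genotype no test was made and no p-value is given, and the number of arrays limits the precision. Counts at 1.5-fold and 2-fold were read against all genes past the floor. Genes within 0.5 of a member's mean signal gave the local spread. Lowess used a span of 0.3 (statsmodels 0.14.6). The steps were run on simulated data with planted shifts larger than any member's difference and no trend with signal. Recovery of shifts as small as those of the members was not tested.

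Named were all members, the genes of each list past the floor up to 7 or otherwise the 3 with the largest absolute difference, Oasl1 and neighbours. Cd38, Xrcc1, Lig3, the genes named below the floor and the marker genes named in the text were picked after their values were seen. The members and lists were chosen with earlier results of these data known. Protein sequences were not used here, and 1 gene that the rule takes is not reported here.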

Additional observations from a re-analysis of the deposited data

How the results depend on the processing

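With 1 array per genotype, the values rest on single arrays, and leaving one out leaves no comparison. No paired analysis was possible because each genotype has 1 array. Changing the floor to 8, to 6 or to none left all 10 members in and the member values as they were, as did the series value table and the mean over probe sets, since each member has 1 probe set. A value was taken as moved when it shifted by more than 0.08, the median gap between probe sets of a gene, and a count or share when it shifted by over 1.5 times.

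Centring on the median gene moved the median of the members from 0.49 to 0.58, that of the interferon-stimulated members from 0.53 to 0.62 and that of Parp1, Parp2 and Parp3 from -0.10 to -0.015. The last is the value of Parp2, and it turned to 0.023 after removal of a loess trend and to 0.0068 after quantile normalization. The count of members at least 1.5-fold higher went from 3 to 5 with centring, and the count at least 1.5-fold lower from 1 to 0 with centring and with loess. The share of all genes at least 1.5-fold lower, 6.28% as deposited, was 3.94% after centring, 3.40% after loess, 4.12% with the pseudocount and 3.22% with no floor. At 2-fold lower the share went from 0.651% to 0.408%, 0.345%, 0.319% and 0.349% in that order. With no floor 2.90% of genes were at least 1.5-fold and 0.625% at least 2-fold higher. Centring shifts every gene alike by construction, a pseudocount shrinks differences by construction, and removing the floor adds dim genes. The causes of the other shifts were not tested.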
